A study of Mus musculus with 6 samples.

Results

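The genes described here are 10 genes of the bone marrow macrophages that engulf spent red cells and return their iron: Vcam1, Slc40a1, Hmox1, Spic, Cd163, Siglec1, C1qa, C1qb, C1qc and Mertk. They were chosen by symbol, as every probe set that the platform annotation gives exactly 1 gene symbol from this list. All 10 genes were found, with 18 probe sets among the 45037 of the table, and they are 10 of 18193 genes named there. Expression was measured on 6 Affymetrix mouse arrays of marrow cells from transplanted mice. In 3 samples the mice were labelled ASXL1-MT-transplanted with a disease resembling myelodysplastic syndrome (ASXL1Mt), and in 3 they were labelled mock-transplanted normal controls (mock). ASXL1 is a chromatin regulator mutated in myelodysplastic syndrome. All titles carry the same transplant prefix. The labels used here give no strain, age, vector or mutant sequence, and do not state the treatment of the mock mice. The series text says that cells carrying CD3e, B220 or TER-119 were removed with magnetic beads from both groups, while the source label names that depletion for mock alone. No label says whether replicates came from different animals, so the p-values reflect sample-to-sample spread, possibly technical.

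Macrophages of the marrow surround maturing erythroblasts in islands, take up their expelled nuclei and aged red cells, and break down the heme. Heme oxygenase frees the iron, and ferroportin, encoded by Slc40a1, exports it. Hemoglobin and haptoglobin enter through CD163, and dying cells are recognised by complement C1q and by receptors such as MERTK. The transcription factor SPI-C is needed for such macrophages in the spleen and marrow. Vcam1, Hmox1 and Slc40a1 are also expressed by other cells, Vcam1 by stroma and endothelium among them.

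The comparison asks how these genes differ between marrow of the diseased mice and of the controls. Deposited values are log values, taken as log2, centred for each probe set on its median over the 6 arrays. They show differences between arrays and no absolute level, and the 2 middle arrays of a probe set are mirror images around 0. A gene's value is the mean of its probe sets. A change is the ASXL1Mt mean minus the mock mean, so a negative change means lower in ASXL1Mt. With limma's moderated test over all 18193 genes and Benjamini-Hochberg adjustment, 3 of the 10 genes passed the threshold of 0.05. Vcam1 and Slc40a1 fell and Cd163 rose. Over all genes the same test called 11.4% in either direction, 4.75% as lower and 6.63% as higher. Among all 45037 probe sets 8.1% passed, 3.37% as lower and 4.73% as higher. Of the 18 probe sets 5 passed as lower and 0 as higher, while 6 were lower and 1 higher before adjustment (unadjusted p under 0.05), a level that 10.2% of all probe sets reached as lower and 16.1% as higher. The median change of the 10 genes was 0.11 and their mean -0.04, which differ in sign, and the median of all genes was also 0.11. The median of all genes became 0.03 with array medians set equal, 0.02 after quantile normalization and 0.01 after cyclic loess. Of all gene calls, 58.3% were higher as deposited, against 49.3%, 47.6% and 46.6% under these scalings. The groups did not overlap in 4 of the 10 genes, against 37.9% of all genes, and in 9 of the 18 probe sets, against 35.4% of all probe sets.

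Part of the brightness can be read from the rounding of the values. Probe sets whose 3 highest arrays lie on the rounding step of logs of 8 and above, a signal of 256 or more in base 2, are called bright. Dimmer values can also fall on that step by chance, and how often they did was not measured. Of all probe sets 38.6% were bright, and 52.3% of all genes had a bright probe set. The 7 bright probe sets of the 18 were those of Vcam1, Slc40a1, Hmox1 and Cd163, while no probe set of Spic, Siglec1, Mertk or the C1q genes was bright. Fitted on bright probe sets alone, 3 of these 4 genes passed, where 43.1% of 9514 genes did. The 3 highest arrays were those of mock for Vcam1 and Slc40a1 and those of ASXL1Mt for Cd163. The choice of bright probe sets is thus not blind to group, and this fit is no separate support. Changes of dimmer probe sets may rest on signals near the background. Lists of cell markers were checked in the same way, and 9 of 10 neutrophil genes and 11 of 11 monocyte genes had a bright probe set. For T and B cells 5 of 11 genes had one, for erythroid cells 4 of 11 and for stroma and endothelium 7 of 16. Among general macrophage markers 10 of 18 had one, near the share over all genes.

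**Figure D1:**
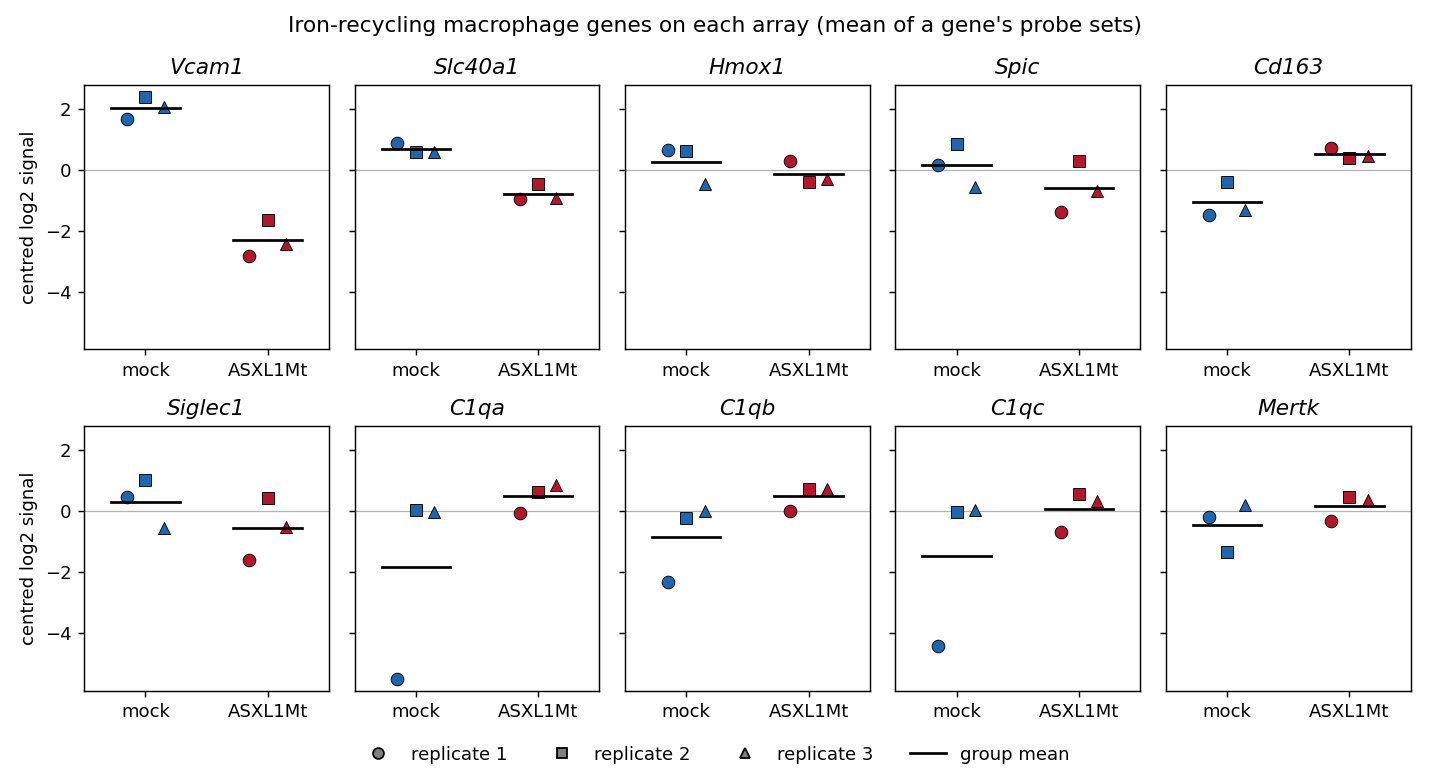
Centred log2 signal of the 10 genes (vertical axis) on each array, by group (horizontal axis), with circles, squares and triangles for replicates 1, 2 and 3 and a line at the group mean. Vcam1, Slc40a1 and Cd163 separate the groups, while C1qa, C1qb and C1qc are far lower in mock replicate 1 than on any other array.

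Vcam1 encodes an adhesion molecule that binds integrin alpha 4 on blood cells and holds erythroblasts and progenitors to macrophages and stroma. It was -2.83, -1.65 and -2.43 in ASXL1Mt replicates 1 to 3 and 1.65, 2.38 and 2.04 in mock replicates 1 to 3. Every ASXL1Mt array lay below every mock array, with means of -2.30 ± 0.60 and 2.02 ± 0.37 (SD, n = 3 each). This was a 20.0-fold lower signal in ASXL1Mt (log2 change -4.33, SE 0.37, limma adjusted p = 0.00803). It was the 22nd most negative change of 18193 genes, and 0.22% of genes had a larger change in either direction.

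All 3 probe sets of Vcam1 passed as lower, but their changes differed in size. On 1451314_a_at the ASXL1Mt arrays were -3.74, -2.21 and -3.33 and the mock arrays 2.21, 2.63 and 2.39, a change of -5.50 (95% interval -6.59 to -4.42, adjusted p = 0.0120). On 1448162_at they were -2.68, -1.55 and -2.48 against 1.55, 2.53 and 2.13, a change of -4.31 (adjusted p = 0.0151). On 1415989_at they were -2.07, -1.19 and -1.47 against 1.19, 1.97 and 1.61, a change of -3.17 (95% interval -3.99 to -2.34, adjusted p = 0.0163). Within each group the probe sets gave the same order of arrays: ASXL1Mt replicate 1 was the lowest of its group and mock replicate 2 the highest of its group on each. The difference in size between the probe sets was not tested. Vcam1 as a gene passed in each of the 6 fits that left out 1 array, with changes from -4.65 to -4.06 and limma adjusted p from 0.0277 to 0.0472. Over all genes 149 did so, 0.819% of those tested and 7.19% of those called with all arrays. Tested among all probe sets, no probe set of Vcam1 passed without ASXL1Mt replicate 3 (limma adjusted p from 0.0636 to 0.0762). The same held without mock replicate 2 (limma adjusted p from 0.0504 to 0.0552).

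Slc40a1 encodes ferroportin, the exporter through which macrophages release iron. It was -0.94, -0.45 and -0.94 in ASXL1Mt and 0.87, 0.59 and 0.57 in mock, and the groups did not overlap. The signal was 2.74-fold lower in ASXL1Mt (log2 change -1.45, SE 0.20, limma adjusted p = 0.0176). Its probe sets were alike: 1417061_at had a change of -1.32 (adjusted p = 0.0290) and 1448566_at a change of -1.58 (adjusted p = 0.0286). ASXL1Mt replicate 2 was the least reduced array of its group on both, as it was for Vcam1. With 1 array left out the change stayed between -1.61 and -1.36, and the gene passed in 1 of 6 fits, the one without ASXL1Mt replicate 2, with adjusted p from 0.0439 to 0.0757 over the 6. The sizes of the Vcam1 and Slc40a1 changes stood apart, with 95% intervals of -5.25 to -3.40 and -1.96 to -0.95.

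**Figure D2:**
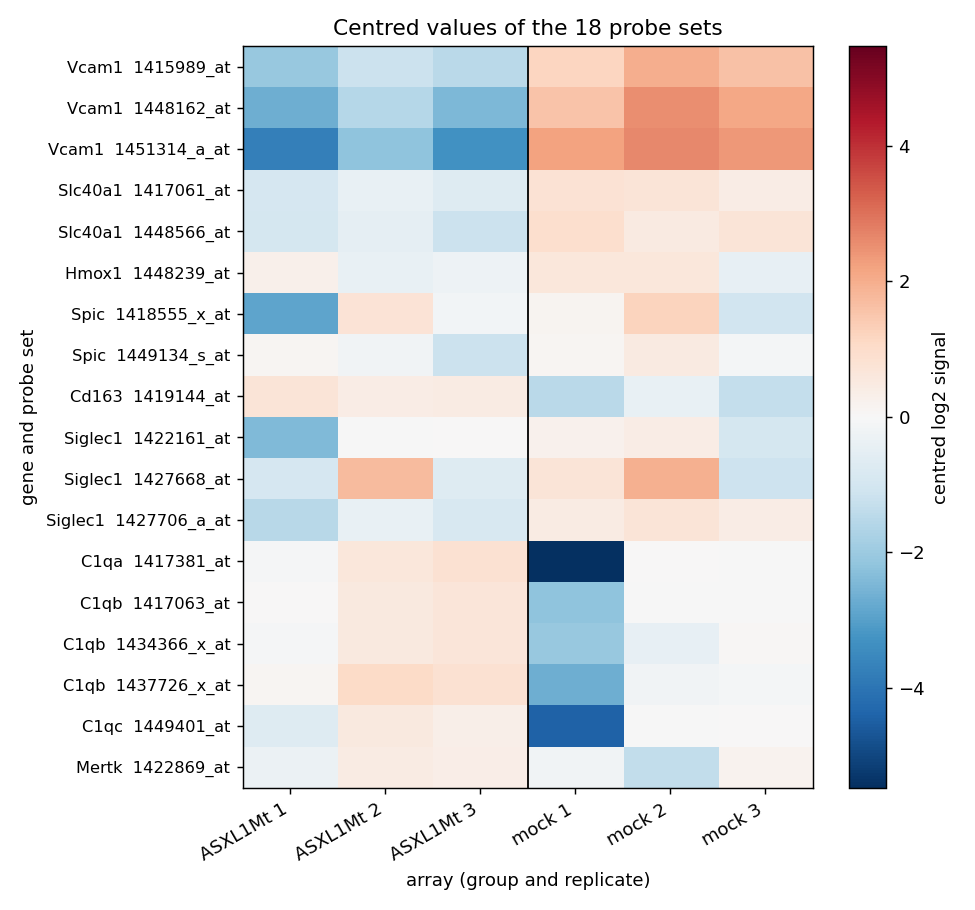
Centred log2 signal (colour) of each of the 18 probe sets (rows) on each of the 6 arrays (columns), with a line between the groups. The 5 probe sets of Vcam1 and Slc40a1 are lower on all ASXL1Mt arrays, and the 5 probe sets of the C1q genes share a low value in mock replicate 1.

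Hmox1 encodes the inducible heme oxygenase, which acts just before iron export by ferroportin. It was 0.30, -0.40 and -0.30 in ASXL1Mt and 0.63, 0.61 and -0.46 in mock. Mock replicate 3 was the lowest array of all, and the groups overlapped. The change of -0.39 did not pass (95% interval -1.36 to 0.57, limma adjusted p = 0.559).

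Cd163, the scavenger receptor for hemoglobin bound to haptoglobin, moved the other way. Its 1 probe set was 0.72, 0.39 and 0.44 in ASXL1Mt and -1.47, -0.39 and -1.31 in mock. All ASXL1Mt arrays lay above all mock arrays, with mock replicate 2 nearest to them. The signal was 2.98-fold higher in ASXL1Mt (log2 change 1.57, SE 0.33, limma adjusted p = 0.0402). Tested among all probe sets instead of genes, the same values missed the threshold (limma adjusted p = 0.0516). Among bright probe sets alone they passed (adjusted p = 0.0113), where 38.7% of 17381 probe sets passed. Cd163 was read as bright from its ASXL1Mt arrays, so that fit is no separate support. The gene lost its call with a trend and robust variance (adjusted p = 0.0695). With 1 array left out the change was 1.37 to 1.91, and the call held in 1 of the fits, the one without mock replicate 2.

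The RefSeq table of promoters (GRCm38.p6) held 5 of the 10 genes, namely Mertk, C1qb, C1qc, Cd163 and Spic. The 250 bases before the start site were searched on both strands for GAGGAA, the box bound by PU.1 and SPI-C, and for TGANNNNGC, the core of the element bound by NRF2 and by BACH1 with small MAF proteins. GAGGAA occurred in 23.3% and TGANNNNGC in 35.2% of 32851 promoters of that length. The matches did not overlap each other. The promoter of Cd163, the gene that rose, is shown first and held neither run of letters, and its matches would be in capitals. The C1qb and C1qc promoters are shown because these neighbouring genes fell together in mock replicate 1, with matches in capitals.
Cd163, chr6:124304401-124304650, plus strand: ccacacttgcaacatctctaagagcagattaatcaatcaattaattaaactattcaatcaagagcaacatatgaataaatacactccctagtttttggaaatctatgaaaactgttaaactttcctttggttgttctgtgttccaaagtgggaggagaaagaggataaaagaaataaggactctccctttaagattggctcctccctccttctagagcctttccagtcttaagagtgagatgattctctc
C1qb, chr4:136886201-136886450, minus strand: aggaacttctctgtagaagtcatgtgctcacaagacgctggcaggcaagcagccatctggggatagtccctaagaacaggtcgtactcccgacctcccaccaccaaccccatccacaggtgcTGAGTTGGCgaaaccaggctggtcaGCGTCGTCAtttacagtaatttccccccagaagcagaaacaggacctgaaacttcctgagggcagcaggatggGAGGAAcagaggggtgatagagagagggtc
C1qc, chr4:136892915-136893164, minus strand: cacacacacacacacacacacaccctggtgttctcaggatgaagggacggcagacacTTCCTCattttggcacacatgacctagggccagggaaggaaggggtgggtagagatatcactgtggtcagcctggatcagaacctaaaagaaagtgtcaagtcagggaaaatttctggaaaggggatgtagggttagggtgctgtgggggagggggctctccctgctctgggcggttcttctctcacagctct
C1qb held 1 GAGGAA on the gene's own strand, from -30 to -25 relative to the start site, and 2 matches to TGANNNNGC. C1qc held 1 GAGGAA on the opposite strand, from -193 to -188, and 0 matches to TGANNNNGC. The Mertk and Spic promoters held 0 of either. These are matches of letters and were not tested as binding sites.

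Spic and Siglec1 describe macrophage identity. Siglec1 encodes CD169, the sialic acid receptor by which marrow island macrophages are recognised. Spic was -1.39, 0.28 and -0.68 in ASXL1Mt and 0.15, 0.85 and -0.58 in mock, with overlapping groups and a change of -0.74 (95% interval -2.14 to 0.67, limma adjusted p = 0.447). Its probe sets, whose names mark them as able to match more than 1 transcript, disagreed on the arrays. In ASXL1Mt 1418555_x_at was -2.88, 0.73 and -0.17, lowest in replicate 1, while 1449134_s_at was 0.11, -0.18 and -1.20, lowest in replicate 3.

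Siglec1 was -1.62, 0.44 and -0.52 in ASXL1Mt and 0.46, 1.02 and -0.56 in mock, a change of -0.87 that did not pass (95% interval -2.53 to 0.79, limma adjusted p = 0.448). Among its 3 probe sets 1427706_a_at had non-overlapping groups, with -1.51, -0.41 and -0.87 against 0.43, 0.70 and 0.41. Its change of -1.44 just missed the threshold among all probe sets (limma adjusted p = 0.0557). It also missed with a variance trend (adjusted p = 0.0503), a trend and robust variance (adjusted p = 0.0856) and the replicate block (adjusted p = 0.142). With 1 array left out it missed in every fit (adjusted p from 0.0795 to 0.160). It passed with array medians set equal (adjusted p = 0.0480), after quantile normalization (adjusted p = 0.0458) and after loess (adjusted p = 0.0445). Siglec1 also passed as a gene when the probe set of smallest spread stood for each gene (adjusted p = 0.0294). That choice uses the spread that the test divides by, so it favours calls and is no separate support. Under it 3898 of 18193 genes passed, against 2072 in the main fit. The other probe sets overlapped between the groups, with changes of -0.70 for 1422161_at and -0.46 for 1427668_at. ASXL1Mt replicate 1 was the lowest array of Siglec1 and Spic and also of Vcam1 and Slc40a1.

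**Figure D3:**
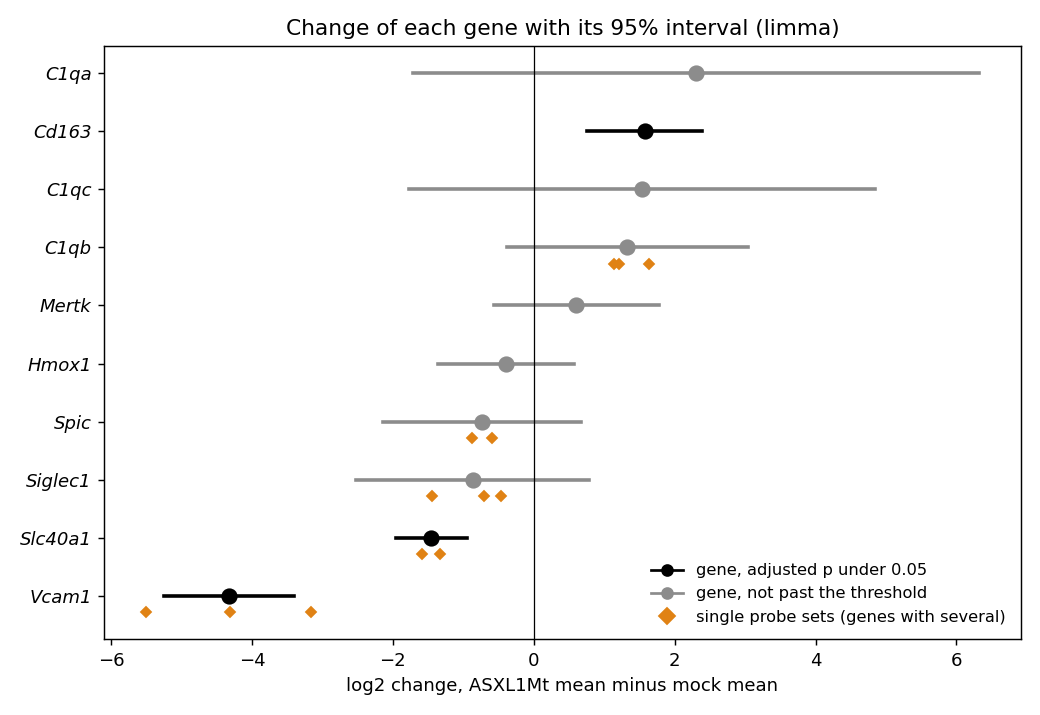
Log2 change of each gene (horizontal axis, ASXL1Mt mean minus mock mean), with its 95% interval from limma, black where the adjusted p was under 0.05 and grey otherwise, and diamonds for single probe sets of genes with several. The changes run from -4.33 for Vcam1 to 2.30 for C1qa, whose interval of -1.72 to 6.32 is the widest of the 10 genes.

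C1qa, C1qb and C1qc encode the 3 chains of C1q, which opens the classical complement pathway and tags dying cells for engulfment. C1qa was -0.06, 0.64 and 0.85 in ASXL1Mt and -5.48, 0.04 and -0.04 in mock. C1qc was -0.69, 0.55 and 0.33 in ASXL1Mt and -4.42, -0.02 and 0.02 in mock. C1qb, the mean of 3 probe sets, was 0.01, 0.71 and 0.73 in ASXL1Mt and -2.32, -0.22 and -0.01 in mock. Mock replicate 1 was therefore the lowest array of all 3 genes, while mock replicates 2 and 3 lay close to the ASXL1Mt arrays. The 3 probe sets of C1qb were -2.21, -2.07 and -2.68 in mock replicate 1.

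None of the C1q genes passed limma's test with all arrays. Changes were 2.30 for C1qa (adjusted p = 0.405), 1.33 for C1qb (adjusted p = 0.265) and 1.53 for C1qc (adjusted p = 0.505). Without mock replicate 1 these changes were 0.48, 0.59 and 0.06, and none passed (adjusted p = 0.428, 0.295 and 0.945). The size of the C1q difference thus rested on that 1 array. The groups of C1qb did not overlap, by 0.01 in ASXL1Mt replicate 1 against -0.01 in mock replicate 3, which centring places around 0.

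A gap of more than 2 log2 units between mock replicate 1 and the lowest of the other 5 arrays was found for 138 of 18193 genes (0.759%), the 3 C1q genes among them. C1qa had the largest such gap of all genes, 5.42, with 3.73 for C1qc and 2.10 for C1qb. This measure was chosen after the values were seen. For the other arrays the same gap was found in 77 to 119 genes each, with 0 of the 10 genes described here. In mock replicate 1 the remaining genes did not share this low value: Slc40a1 and Hmox1 had their highest value there, and Vcam1, Spic, Siglec1 and Mertk were not at their lowest. Cd163 was lowest there by 0.16.

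Mertk encodes a receptor that binds dying cells through the bridging proteins GAS6 and protein S. It was -0.32, 0.44 and 0.37 in ASXL1Mt and -0.21, -1.33 and 0.21 in mock, and the groups overlapped. The change of 0.61 did not pass (95% interval -0.56 to 1.77, limma adjusted p = 0.453). Mock replicate 2 was the lowest array, and without it the change was 0.16.

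**Figure D4:**
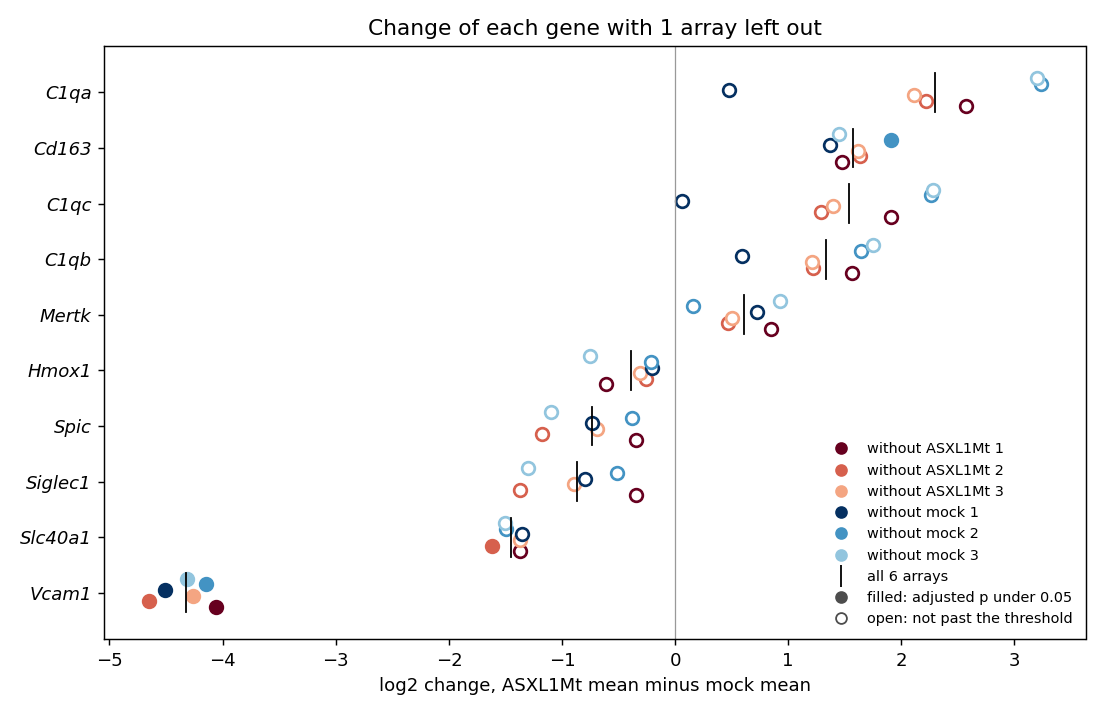
Log2 change of each gene (horizontal axis) with each array left out in turn (colours), filled where limma's adjusted p was under 0.05, and with a black line for all 6 arrays. Vcam1 is filled in all 6 fits, Slc40a1 and Cd163 in 1 each, and the C1q genes move toward 0 without mock replicate 1.

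Other genes of iron and heme handling were examined as a list of 31 genes, of which 30 were measured. In ASXL1Mt 5 fell and 1 rose, where 4.75% of all genes were called lower and 6.63% higher. The list's median change was -0.07, against 0.11 for all genes. Steap4, a metalloreductase, was -1.50, -0.94 and -1.41 in ASXL1Mt and 2.47, 1.71 and 1.17 in mock, 8.39-fold lower in ASXL1Mt (log2 change -3.07, SE 0.38, limma adjusted p = 0.0143). Slc11a1, the metal transporter NRAMP1 of the phagosome, was -0.76, -0.59 and -0.84 against 0.89, 0.95 and 0.59, or 2.90-fold lower (adjusted p = 0.0123). Haptoglobin, Hp, which binds free hemoglobin for uptake by CD163, was 1.71-fold lower (adjusted p = 0.0434). Hmox2, the constitutive heme oxygenase, was the member that rose, by 1.67-fold (adjusted p = 0.0354).

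The opposing regulators of Hmox1 and Slc40a1 both fell. Nfe2l2, encoding the activator NRF2, was -0.44, -1.66 and -1.59 in ASXL1Mt and 0.78, 0.75 and 0.64 in mock, or 3.87-fold lower (limma adjusted p = 0.0315). Bach1, encoding the heme-sensitive repressor, was -0.49, -0.37 and -0.44 against 0.57, 0.38 and 0.35, or 1.83-fold lower (adjusted p = 0.0218). With 1 array left out, Slc11a1 passed in 5 of 6 fits, Steap4 in 4, Nfe2l2 in 1 and Bach1, Hp and Hmox2 in 0.

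Genes for engulfment and complement beside the members were listed as 28, of which 24 were measured. In ASXL1Mt 2 rose and 5 fell, where 6.63% of all genes were called higher and 4.75% lower. The list's median change was 0.01 and its mean -0.02, which differ in sign. Dock1, which drives the actin rearrangement of engulfment, was -1.69, -2.41 and -1.81 in ASXL1Mt and 1.57, 1.04 and 1.48 in mock, 10.1-fold lower (limma adjusted p = 0.00773), and its call held whichever array was left out. None of its probe sets was bright. The receptors C5ar1 and C3ar1 for complement fragments were 5.33-fold and 2.01-fold lower (adjusted p = 0.00985 and 0.0251). Complement component C2 was 3.29-fold higher (adjusted p = 0.0122) and Mfge8, a bridging protein to dying cells, 2.16-fold higher (adjusted p = 0.0149). Pros1, the protein S ligand of MERTK, was 1.90-fold lower (adjusted p = 0.0423), while Gas6, its other ligand, had a change of 0.90 that did not pass (adjusted p = 0.147). The fifth that fell was Jmjd6, at -0.79 (adjusted p = 0.0434). C5ar1 and C2 passed in 5 of the 6 fits that left out an array, Mfge8 in 3, C3ar1 in 1 and Pros1 in 0. The values of Gas6 and Jmjd6 were picked after they were seen.

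Binding partners and regulators of the 10 genes were listed as 16 genes, all measured. Of these 2 rose and 4 fell with a median change of 0.08, where 6.63% of all genes were called higher and 4.75% lower. Itga4, the integrin chain that binds VCAM1, was 0.77, 0.47 and 0.71 in ASXL1Mt and -1.10, -0.56 and -0.88 in mock, 2.82-fold higher (limma adjusted p = 0.0157). Itgb7, a partner chain of integrin alpha 4, was 1.61-fold higher (adjusted p = 0.0390). Its other partner Itgb1, chosen after its value was seen, had a change of 0.39 and did not pass (adjusted p = 0.140). Spi1, encoding PU.1, was -0.32, -0.33 and -0.37 against 0.37, 0.35 and 0.32, or 1.61-fold lower (adjusted p = 0.0272). Nfe2l2, Bach1 and Pros1, described above, were the others that fell. When arrays were left out in turn, Itga4 passed in 3 of 6 fits, and Itgb7 and Spi1 in 0.

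Lists of cell markers were set beside these results, since in bulk samples fewer cells of a type and less RNA per cell cannot be told apart. Of 18 macrophage identity genes 0 rose and 2 fell by limma, with 5 higher and 3 lower at an unadjusted p under 0.05. Of all genes 18.1% were higher and 10.9% lower at that level, and 6.63% were called higher and 4.75% lower after adjustment. The counts in the other marker lists are to be set beside these shares. Those that fell were Lyve1, 3.02-fold lower (adjusted p = 0.0483), and Fcgr1, the high affinity IgG receptor, 2.03-fold lower (adjusted p = 0.0294), and both lost the call whichever array was left out. Most of this list went the other way from Lyve1 and Fcgr1, with 12 of 18 changes positive. The list's median change was 0.46, against 0.11 for all genes, and it was 0.14 without mock replicate 1. Its mean per array was -0.13 to 0.18 in ASXL1Mt and -0.45 to 0.06 in mock, where replicate 1 was the lowest. Neither Adgre1, a pan-macrophage surface marker, nor Csf1r passed, with changes of 0.23 and -0.01, values looked up after the test.

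**Figure D5:**
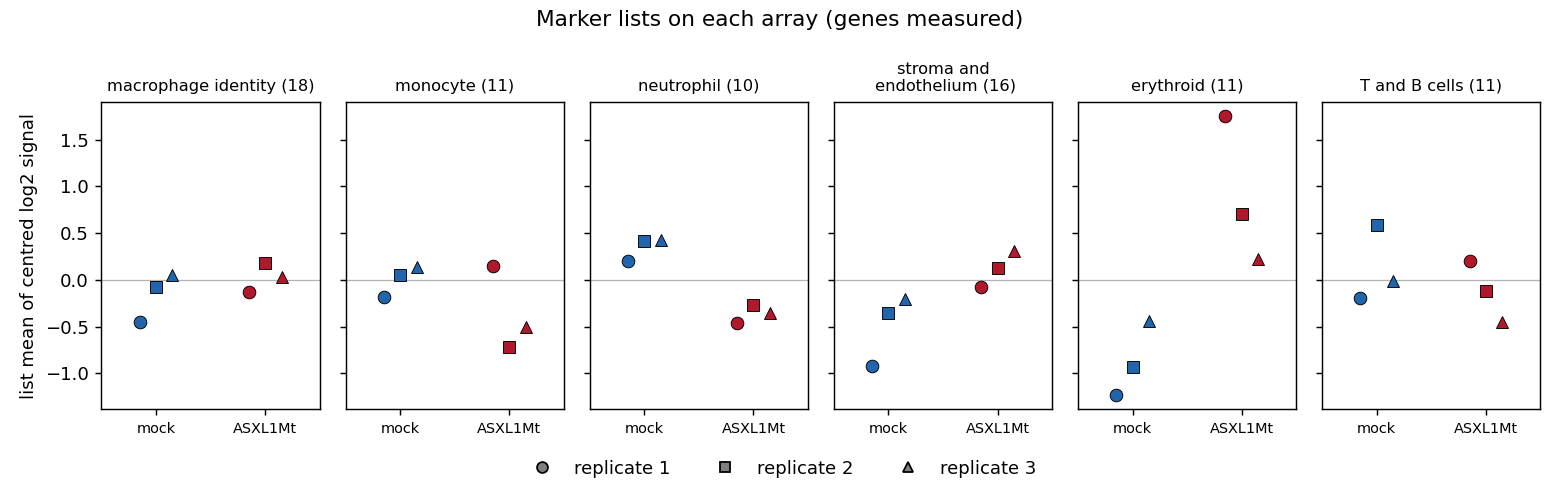
Mean centred log2 signal of 6 marker lists (vertical axis) on each array, by group, with symbols for replicates 1 to 3 and the number of genes measured in brackets. The erythroid, stroma and neutrophil means separate the groups, the macrophage, monocyte and lymphocyte means do not, and mock replicate 1 is the lowest array of the macrophage, stroma and erythroid lists.

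Of 16 genes of stroma and endothelium, which also express Vcam1, 3 rose and 1 fell, with list means of -0.08 to 0.31 in ASXL1Mt and -0.92 to -0.21 in mock. Bgn was 6.14-fold, Cxcl12 5.04-fold and Col3a1 3.20-fold higher, and Pdgfrb 2.07-fold lower (limma adjusted p = 0.0182, 0.0227, 0.0365 and 0.0372). With 1 array left out Bgn passed in 2 of 6 fits, Cxcl12 and Col3a1 in 1 each and Pdgfrb in 0. Of 11 erythroid genes 3 rose and 0 fell, and 7 were higher and 0 lower at an unadjusted p under 0.05. Their means were 0.23 to 1.76 in ASXL1Mt and -1.23 to -0.44 in mock. Alas2, Tspan33 and Add2 rose, by 15.8-fold, 4.38-fold and 3.43-fold, and with 1 array left out each passed in 0 of 6 fits. Without mock replicate 1 no stromal or erythroid gene passed, with list medians of 0.42 and 1.53 against 0.57 and 1.78 with all arrays. Calls over all genes also dropped in that fit, to 876 from 2072. Of 10 neutrophil genes 4 fell and 0 rose (0 at an unadjusted p under 0.05), with means of -0.46 to -0.27 against 0.20 to 0.42. They were Mmp9, Cxcr2, Mmp8 and Elane, from 3.65-fold to 2.09-fold lower, and Mmp9 passed in 5 of 6 fits and the others in 2 each. Of 11 monocyte genes 1 rose, Irf8 at 3.18-fold, and 1 fell, Itgam at 2.24-fold, which passed in 5 and 0 of these fits. Of 11 T and B cell genes 2 rose, Cd8a at 7.95-fold and Cd79b at 1.95-fold, which passed in 6 and 0 of these fits. By the adjusted test 0 fell (1 at an unadjusted p under 0.05). Most of this list went the other way from Cd8a and Cd79b, with 3 of 11 changes positive and a median change of -0.26. List means overlapped for monocytes, -0.72 to 0.15 in ASXL1Mt and -0.18 to 0.14 in mock, and for T and B cells, -0.45 to 0.20 and -0.19 to 0.59. The part of these cells in the changes of Vcam1, Slc40a1 and Cd163 was not tested. The series text names the removal of CD3e, B220 and TER-119 cells for both groups, and the source label for mock alone. If only the mock samples were depleted, that removal cannot be told apart from group for any gene. Its part in the erythroid and lymphoid differences and in the changes of the 10 genes was not tested.

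The genes most like each called member were taken as the 3 other genes with the smallest root mean square difference over the 6 arrays. For Vcam1 these were Il1r2, Adam19 and Bst1, at 0.42, 0.43 and 0.46 log2 units. Their changes were -4.17, -4.28 and -3.57. For Slc40a1 they were 4930438A08Rik, Rflnb and Tex15, at 0.06, 0.08 and 0.09, and for Cd163 they were Klrk1, Arhgap6 and Slc2a5, at 0.12, 0.15 and 0.17. The distances of the neighbours of Vcam1 were thus several times those of the neighbours of Slc40a1. Few genes had changes as large as Vcam1: 0.22% of genes changed more than Vcam1 and 10.7% more than Slc40a1. The distances therefore do not show which pattern was the more distinct.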

How the data were processed

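Per the submitters' processing notes, MAS5 produced the array signals. The deposited values are log2 values as read from the table: no label states the base, the centring or any floor, so the scale stays unknown and a fold holds only if the base is 2. Each probe set was centred on its median (largest row median 5e-07). In 425 probe sets arrays tied, always at the lowest value, so higher was read as brighter. Medians of the columns were 0.02, 0.05 and 0.05 for ASXL1Mt and -0.05, -0.03 and -0.05 for mock. The number of arrays limits the precision.

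In the platform annotation 34945 probe sets had 1 gene symbol, 932 had several and 9160 had none here. Genes are means of their probe sets. Groups and replicate numbers came from the titles. Using limma 3.58.1 (R 4.3.3), a model with the group term alone was fitted by lmFit to the 6 arrays and moderated by eBayes. It was fitted on all probe sets and on all genes, with Benjamini-Hochberg adjustment and a threshold of 0.05. The code of the fit was run on simulated data with independent noise and few, large changes. Those settings differ from these data, so that run checks the code and not the calls. A probe set was called bright when its 3 highest arrays lay within 0.2 of a step of 20 binary places. Genes of each list were named if they passed, up to 6 by size of change, or by the 2 smallest p. The members, lists and alternatives were chosen with earlier results of these data known. The table held 0 Affymetrix control probe sets, so RNA quality was not checked, and without scanner files background correction and scan batches were not examined. Alternatives were other scalings, variance models, probe set choices, a replicate block and each array left out.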

Additional observations from a re-analysis of the deposited data

How the results depend on the processing

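The direction of all 10 gene changes held under every alternative run. The count of 3 genes called stayed at 3 with array medians set equal, quantile normalization, cyclic loess and a variance trend. It also stayed at 3 without _x_at and _s_at probe sets (9 genes). On bright probe sets alone it was 3 as well, where 4 of the 10 genes have a value and 43.1% of 9514 genes passed. That subset takes each called gene through its higher group, so it is no separate check. The count was 2 with a trend and robust variance. It was 4 when the least variable probe set stood for each gene (Siglec1 was added), a choice that favours calls. With 1 array left out it was 1 to 2, and Vcam1 was called each time. The count of 5 probe sets was 0 to 3 with 1 array left out, being 0 without ASXL1Mt replicate 3 and without mock replicate 2, where 6 were lower at an unadjusted p under 0.05 in limma's test. Calls over all genes, 2072 as reported, were 192 to 1033 with 1 array left out, 4098 of 9514 on bright probe sets and 3898 with the least variable probe set. Calls over all probe sets, 3646 as reported, were 66 to 1142 with 1 array left out, 6733 of 17381 on bright probe sets and 5816 with a trend and robust variance. The causes were not tested.

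Changes of single uncalled probe sets turned with 1 array left out: 1418555_x_at of Spic ran from -1.63 to 0.17, and 1422161_at and 1427668_at of Siglec1 from -1.13 to 0.10 and from -1.31 to 0.27. The replicate block, with replicate numbers taken as pairs, gave 0 member genes, 0 member probe sets, 0 genes and 0 probe sets called in limma's test. At an unadjusted p under 0.05 it gave 4568 genes and 9874 probe sets, 2 of the 10 genes higher and 2 lower. The titles give the numbers but do not say whether they pair the samples. Deviations of same-numbered arrays correlated at -0.01, -0.01 and -0.01, and those of other pairs at 0.002 to 0.007. Values all this near 0 cannot decide whether the samples were paired. Filters on signal, offsets and floors need levels that centring removed and were not run.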

Other observations

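The 3 C1q genes lie next to each other in the RefSeq gene order, and their measured neighbours did not share the low value of mock replicate 1. On one side Lactbl1 was 0.05 and Tex46 -0.10 in mock replicate 1, and on the other Epha8 was 0.33, Zbtb40 -0.19 and Wnt4 -0.92. For Wnt4, whose mock replicates 2 and 3 were -1.17 and -0.56, the change of 1.48 passed limma's test (adjusted p = 0.0177), and none of these neighbours had a bright probe set.

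Mock replicate 1 was the lowest of the 6 arrays for 8 of 18 macrophage identity genes, and for 21.9% of all genes. Among these Cd5l, a protein secreted by tissue macrophages, was -1.52 there and -0.33 to 0.36 on the other arrays. Fcna, a ficolin of macrophages, was -1.16 against -0.06 to 0.05, and Mrc1, the mannose receptor, was -1.21 against -0.14 to 0.10. Other macrophage genes were not low there: Fcgr1 was 0.74, Vsig4 0.02 and Stab1 0.31. These genes were chosen after their values were seen, and none of the gaps has a replicate check. Besides C1qa, the 2 genes with the largest gaps in mock replicate 1 were Gzma, a granzyme of cytotoxic lymphocytes, at 4.95 and Bpifc at 4.57.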
